A study of Felis catus with 2 samples.

Results

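Myocilin (MYOC), optineurin (OPTN), cytochrome P450 family 1 subfamily B member 1 (CYP1B1) and the scaffold protein TKS4 (SH3PXD2B) are 4 genes in which human mutations cause glaucoma or a developmental disorder that includes it, and all 4 were candidates in the linkage screen of the feline disease. Their rows were taken by name, as those of the deposited table whose gene name equals MYOC, OPTN, CYP1B1 or SH3PXD2B. Each name stands on 1 row of 32065 loci. The 4 genes and the lists below were chosen with earlier results of these data known. The study sequenced polyadenylated RNA from a dissected piece of eye, the iridocorneal angle with ciliary body, adjoining sclera and trabecular meshwork, of 1 cat with primary congenital glaucoma (PCG) and 1 unrelated healthy cat, both 2 months old. PCG in this colony is recessive and is attributed to a frameshift in LTBP2. The genotype of the 2 sequenced cats is not given in the labels, which call them normal and affected.

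Each condition has 1 library, hence no difference could be tested against replicate error, no p-value is given, and every value below describes these 2 libraries. Values are FPKM, which divide the fragments of a gene by its exon length and by the size of the library, as calculated by the authors, and can be compared between genes because they are scaled by length. Log2 ratios are log2 of (affected FPKM + 1) over (normal FPKM + 1), which understates the change of genes with low levels. A locus was compared when either library reached 1 FPKM. The 16676 loci that passed had a median log2 ratio of −0.0047. In bulk tissue, fewer cells of a type and less RNA per cell cannot be told apart.

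These genes act in different parts of the outflow pathway and of the eye. The trabecular meshwork filters aqueous humor as it leaves the anterior chamber, and its resistance, together with aqueous humor production, affects the intraocular pressure. Myocilin is a secreted protein of the olfactomedin family that is abundant in the trabecular meshwork, is induced there by glucocorticoids, and in its mutant forms is retained in the endoplasmic reticulum. Optineurin is an autophagy receptor that is phosphorylated by the kinase TBK1 and binds Rab8, huntingtin and myosin VI, and its mutations are linked to normal-tension glaucoma and amyotrophic lateral sclerosis. CYP1B1 is a monooxygenase of oestrogens, retinoids and polycyclic hydrocarbons that is induced through the aryl hydrocarbon receptor, and it is the gene most often mutated in human PCG. TKS4 is a scaffold of podosomes, the actin-rich adhesions that degrade matrix, and its loss causes Frank-ter Haar syndrome, in which glaucoma occurs.

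The study followed each of these genes through the pedigree with a short tandem repeat marker. The primer pairs of the 4 markers are shown, 5′ to 3′ and in lower case throughout, because they are the designed oligonucleotides by which the genes entered the study. The genotypes obtained with them were not analysed here. The paper reports results compatible with linkage only for markers close to LTBP2, and not for those of MYOC, OPTN, CYP1B1 or SH3PXD2B.
MYOC-STR-4 forward: tgcttccaatgcagaaagtg
MYOC-STR-4 reverse: tgctgtttcaaagggacaca
OPTN-STR-2 forward: cacgctgcatgaaatatcctt
OPTN-STR-2 reverse: aaaggcatctcagtgttctgatt
CYP1B1-STR-1 forward: gacccacaggtctcaggaaa
CYP1B1-STR-1 reverse: acactgccagatgtcaccaa
SH3PXD2B-STR-2 forward: ccgactcctgatttcagctc
SH3PXD2B-STR-2 reverse: agcaagaccccacttgaaga

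MYOC was the most abundant of the 4 genes in both cats, with 149.7 FPKM in the normal cat and 301.5 FPKM in the affected cat, which is 2.01 times as much. CYP1B1 came next in both libraries, with 43.1 FPKM in the normal cat and 35.8 FPKM in the affected cat, and it was the only member with a lower value in the affected cat. OPTN was listed at 23.1 FPKM in the normal cat and 32.9 FPKM in the affected cat. SH3PXD2B was the least abundant, with 3.37 and 4.50 FPKM. The order MYOC, CYP1B1, OPTN, SH3PXD2B was therefore the same in both cats, but the distance between CYP1B1 and OPTN was much smaller in the affected one.

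**Figure D1:**
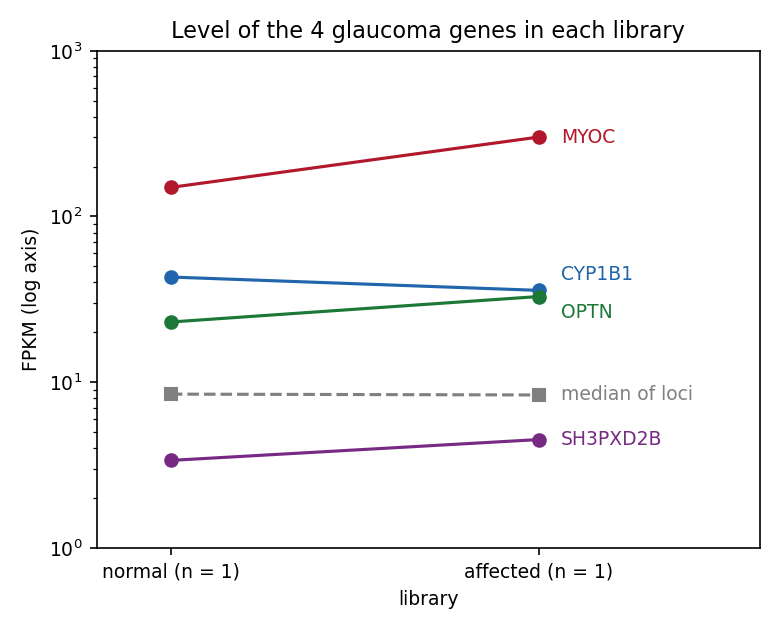
FPKM (vertical log axis) of the 4 genes in the normal and the affected library, 1 point per library, with lines joining the values of a gene. The dashed grey line is the median of the 16676 compared loci. MYOC, CYP1B1 and OPTN lie above that median and SH3PXD2B below it in both libraries, and the points of CYP1B1 and OPTN nearly meet in the affected library at 35.8 and 32.9 FPKM.

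The depth behind these values was recovered from the steps between low values, since the number of fragments is not stated. At unnamed loci of 400 to 3000 bases, 97.3% of 1879 low values in the normal library and 96.1% of 1655 in the affected library lay within 0.03 of a whole number of fragments, where 6% would by chance. Each FPKM then stands for about 71.2 fragments per kilobase in the normal cat and 67.5 in the affected cat. The table gives no transcript lengths, so the counting error of each gene is given for 1 kilobase of transcript, and a longer transcript has a smaller one. On that basis MYOC rests on 10668 fragments in the normal cat and 20354 in the affected cat, which is a counting error of 0.968% and 0.701%. SH3PXD2B rests on only 240 and 304 fragments, an error of 6.45% and 5.74%. Intervals on log2 ratios and on ratios between genes are 95% intervals on 1 kilobase that cover counting error only and not the variation between cats. Intervals on the share of loci that a gene exceeds are Wilson intervals over the compared loci.

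Among the compared loci, 8.14% were at least 2-fold higher and 8.75% at least 2-fold lower in the affected library on the log2 ratio scale. In all, 16.9% of loci were past 2-fold in either direction. Of the 4 genes, 1 was at least 2-fold higher, MYOC, and 0 were at least 2-fold lower. The log2 ratio of MYOC was 1.01 (0.97 to 1.04), just past the 2-fold line of 1. With both libraries rescaled to the same sum of FPKM it was 0.96, on the other side of that line. OPTN had a log2 ratio of 0.49 (0.40 to 0.59) and SH3PXD2B of 0.33 (0.09 to 0.58), so both were higher in the affected library by less than 2-fold. That of CYP1B1 was −0.26 (−0.34 to −0.18), which is 1.20 times more in the normal library. The 4 directions were the same with a pseudocount of 0.1 FPKM and with both ways of rescaling the libraries.

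**Figure D2:**
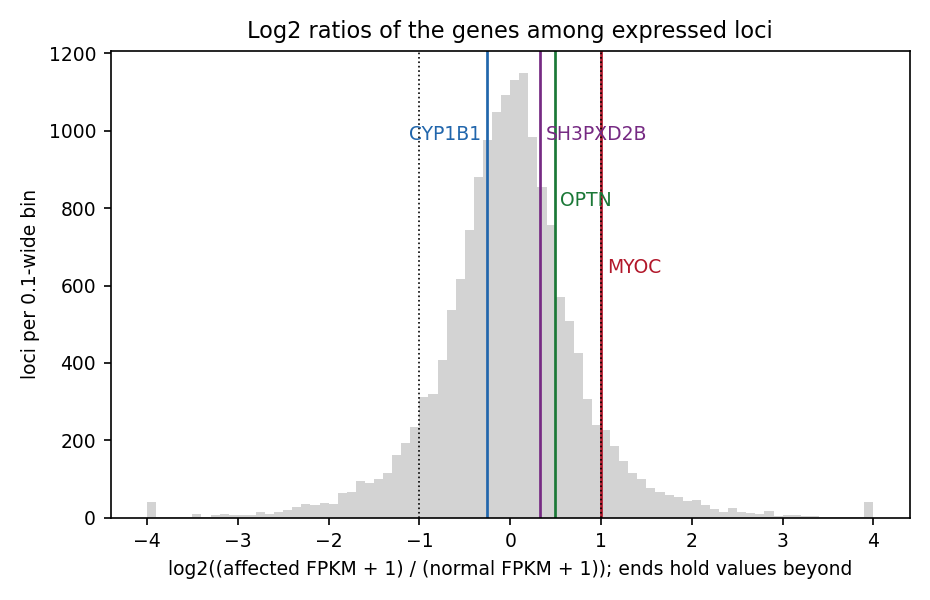
Histogram of the log2 ratio (horizontal axis) of 16676 loci in bins 0.1 wide, with the number of loci on the vertical axis and values beyond the ends placed in the end bins. Coloured lines mark the 4 genes and dotted lines the 2-fold limits. MYOC lies at the upper 2-fold limit, at 1.01, and the other three lie inside the bulk of the loci.

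MYOC, the secreted olfactomedin protein, ranked 505th of the compared loci in the normal and 284th in the affected library. Its level exceeded 97.0% of loci in the normal (95% Wilson interval 96.7 to 97.2%) and 98.3% in the affected library (98.1 to 98.5%). These values are 17.7 and 36.0 times the median locus. The log2 ratio exceeded that of 91.9% of all loci, which leaves 1350 loci above it. Among the 544 loci whose mean FPKM was within 2-fold of that of MYOC, 15.8% were at least 2-fold higher, against 8.14% of all loci, and the log2 ratio of MYOC exceeded that of 84.4% of them.

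CYP1B1, the monooxygenase, exceeded 88.0% of loci in the normal (87.5 to 88.5%) and 84.7% in the affected library (84.1 to 85.2%). Its rank went from 2002nd to 2552nd, and its level from 5.09 to 4.28 times the median locus. The log2 ratio was above that of 33.7% of all loci and above that of 27.1% of the 3496 loci of like abundance. The middle 50% of those loci spanned −0.31 to 0.39, which includes the value of CYP1B1.

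OPTN, the autophagy receptor, exceeded 77.0% of loci in the normal (76.4 to 77.7%) and 83.3% in the affected library (82.7 to 83.8%). Its log2 ratio exceeded that of 79.2% of all loci, and that of 79.9% of the 4516 loci of like abundance, whose middle 50% ended at 0.39. OPTN thus lay above the middle of loci of its level, though 3463 loci had a higher log2 ratio.

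SH3PXD2B, which encodes the podosome scaffold, exceeded 27.7% of loci in the normal (27.0 to 28.4%) and 35.5% in the affected library (34.8 to 36.2%). Its level was 0.398 and 0.538 times the median locus. The log2 ratio exceeded that of 75.3% of the 4904 loci of like abundance, and the upper end of their middle 50% was 0.32. The difference of 1.13 FPKM is small beside that of MYOC, which was 151.8 FPKM.

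Ratios between genes within a library do not depend on the scaling between libraries. MYOC stood 3.48 times above CYP1B1 in the normal library (3.34 to 3.62) and 8.43 times above it in the affected library (8.08 to 8.79). The ratio of the pair was therefore 2.42 times larger in the affected cat (2.29 to 2.57), the largest shift among the 6 pairs of these genes. CYP1B1 stood 1.87 times above OPTN in the normal library (1.76 to 1.98) and 1.09 times above it in the affected library (1.03 to 1.15). The last interval comes close to 1, so these neighbours in the order nearly coincided there.

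CYP1B1 was 12.8 times SH3PXD2B in the normal and 7.95 times SH3PXD2B in the affected library, a ratio 1.61 times larger in the normal cat (1.35 to 1.92). MYOC was 44.4 times SH3PXD2B in the normal and 67.0 times SH3PXD2B in the affected library, 1.51 times larger in the affected cat (1.27 to 1.79). MYOC was 6.49 times OPTN in the normal and 9.17 times OPTN in the affected library, a ratio 1.41 times larger (1.32 to 1.51). OPTN was 6.84 times SH3PXD2B in the normal and 7.30 times SH3PXD2B in the affected library. That shift of 1.07 times (0.890 to 1.28) was within counting error on 1 kilobase.

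The 4 genes lie on 4 chromosomes of the felCat5 build, so none is the neighbour of another. Starts are counted from 1, and the table gives spans of loci without exons. MYOC (XLOC_028768) spans chromosome F1 from 13609233 to 13630145. No other locus of the table overlaps it, and its nearest named neighbours PRRC2C and VAMP4 lie 28086 and 22330 bases away. PRRC2C had 12.9 FPKM in the normal cat and 16.6 FPKM in the affected cat, a log2 ratio of 0.34. VAMP4 stands on 2 rows with the same span, with log2 ratios of 0.18 and −0.05. The nearest unnamed loci had log2 ratios of 1.12 at a distance of 902304 bases and 0.62 at a distance of 729057 bases, so MYOC had a higher log2 ratio than its nearest named neighbours but not than each of these loci.

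CYP1B1 (XLOC_005193) spans chromosome A3 from 111590785 to 111598278, the shortest of the 4 loci with 7494 bases. At lower coordinates and only 286 bases away, 3 unnamed loci share a span of 9730 bases, and all 3 were lower in the affected library, like CYP1B1. Their values were 3.15 and 1.96 FPKM, 3.73 and 2.16 FPKM, and 0.344 and 0.151 FPKM in the normal and the affected library. The table gives no strand, so which of them runs opposite to CYP1B1 was not analysed here. RMDN2, on the other side at 28695 bases, had 6.89 and 9.28 FPKM, a log2 ratio of 0.38. ATL2, the nearest named neighbour at lower coordinates at 178125 bases, had 12.6 and 10.7 FPKM, a log2 ratio of −0.22.

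OPTN (XLOC_012306) spans chromosome B4 from 12016342 to 12056408, with no overlapping locus. Its nearest named neighbours were lower in the affected library, unlike OPTN. MCM10, a DNA replication factor 13714 bases away, had 1.23 FPKM in the normal cat and 0.105 FPKM in the affected cat. CCDC3, 76521 bases away on the other side, had 140.8 and 43.6 FPKM. The nearest unnamed loci were not lower, with log2 ratios of 0.04 at a distance of 12161 bases and 0.83 at a distance of 290365 bases. SH3PXD2B (XLOC_000607) spans chromosome A1 from 177120842 to 177193121, and a second row with an Ensembl identifier alone is listed over the same span at 0 in both libraries. Its named neighbours UBTD2 and NEURL1B both had lower values in the affected library, with log2 ratios of −0.20 and −2.17.

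Genes whose pair of values lay nearest to each member, by distance in log2(FPKM + 1) over the 2 libraries, were of varied kinds. For MYOC these were B3GNTL1, FXYD1, TIMP3, MTCH1 and TFPI2, at distances of 0.14 to 0.27. TIMP3, a matrix-bound inhibitor of metalloproteases, had 161.7 FPKM in the normal cat and 353.9 FPKM in the affected cat. TFPI2, a secreted protease inhibitor, had 178.6 and 320.9 FPKM. OPTN was nearest to SEPHS2, DHX32, TOR1AIP1, SBDS and ADCK3, CYP1B1 to SLC39A1, LAMB2, SSRP1, ACBD3 and ZMYM6NB, and SH3PXD2B to ZNF268, HIVEP3, SEC31B, CTTNBP2 and CCRN4L. For these 3 members all distances were at most 0.044, because many more loci share their level. With 2 libraries such likeness is a match of 2 values and no more.

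The other genes of each pathway were taken from 7 lists with 177 entries, of which 151 were matched to a row by the listed symbol and 4 by another symbol or spelling of the same gene. Between 0 and 63.6% of the genes used on a list were at least 2-fold higher, against 8.14% of all loci, and the glucocorticoid list had the highest share. Between 0 and 30.0% were at least 2-fold lower, against 8.75% of all loci, with the highest share on the list around CYP1B1.

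Of the olfactomedin family to which myocilin belongs, 10 genes passed the minimum, of which 0 were at least 2-fold higher and 2 at least 2-fold lower, with a median log2 ratio of 0.21. OLFML3, a secreted member and the most abundant of the list, had 131.9 FPKM in the normal cat and 156.5 FPKM in the affected cat. Latrophilin 1 (LPHN1), an adhesion receptor with an olfactomedin domain, had 18.7 and 34.9 FPKM and a log2 ratio of 0.86. Gliomedin (GLDN) had 0.812 and 1.96 FPKM, with a log2 ratio of 0.71 that became 1.18 with a pseudocount of 0.1 FPKM and was then the 1 gene of the list at least 2-fold higher. MYOC had a log2 ratio of 1.01 and OLFML2B one of 0.25. The 2 lower genes were OLFM3, with 3.53 and 0.262 FPKM, and latrophilin 2 (LPHN2), with 17.8 and 5.13 FPKM. OLFM1, a neuronal secreted member, had a log2 ratio of −0.56.

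The glucocorticoid response genes were mostly above 2-fold in the affected cat relative to the normal cat. Of 11 genes past the minimum, 7 were at least 2-fold higher and 0 at least 2-fold lower, and the median log2 ratio was 1.69. FKBP5, a co-chaperone of the glucocorticoid receptor, had 28.0 FPKM in the normal cat and 135.1 FPKM in the affected cat. PER1, a circadian clock gene with glucocorticoid response elements, had 10.8 and 77.0 FPKM on the row of highest mean among its 3 rows. DUSP1, a phosphatase of MAP kinases, had 16.7 and 142.2 FPKM. These are the 3 highest log2 ratios of the list, 2.23, 2.72 and 3.02.

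The remaining 4 genes past 2-fold were KLF9, SGK1, TSC22D3 and ANGPTL7. TSC22D3, which encodes the glucocorticoid-induced leucine zipper protein, had 16.3 FPKM in the normal cat and 55.0 FPKM in the affected cat. SGK1, a kinase that regulates sodium transport, had 138.3 and 480.5 FPKM. KLF9, a transcription factor, had 5.10 and 22.9 FPKM. ANGPTL7, a secreted protein of the trabecular meshwork and cornea, had 2.51 and 7.93 FPKM. The 4 genes that stayed within 2-fold were FKBP4, another co-chaperone of steroid receptors, with a log2 ratio of −0.59, the cortisol-inactivating enzyme HSD11B2 with −0.38, CRISPLD2 with 0.16 and ERRFI1 with 0.80. NR3C1, the receptor itself, and ZBTB16 were not matched to a row of their own and were not analysed here.

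Some of these genes, DUSP1, PER1 and SGK1 among them, are also immediate early genes, which many stimuli induce within minutes. A list of 14 immediate early genes without those 3 was written after the values had been seen. It held 10 genes at least 2-fold higher, or 71.4%, and 0 at least 2-fold lower, against 8.14% and 8.75% of all loci. Its median log2 ratio was 1.99, and the 2 genes below 0 were IER5 at −0.96 and FOSL1 at −0.12. EGR1, the highest, had 11.4 FPKM in the normal cat and 189.4 FPKM in the affected cat. The summed level of the list was 128.7 and 798.2 FPKM, and no gene of it was at 0. The part of such a response in the glucocorticoid values or in MYOC was not tested.

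Genes for protein folding in the endoplasmic reticulum had smaller differences. All 20 passed the minimum, with 3 at least 2-fold higher, 0 at least 2-fold lower and a median log2 ratio of 0.25. HSP90B1, the chaperone GRP94 that handles mutant myocilin, had 187.4 FPKM in the normal cat and 199.1 FPKM in the affected cat. HSPA5, the chaperone BiP, had 185.6 and 229.5 FPKM. The 3 genes past 2-fold were DDIT3, HERPUD1 and ERN1. DDIT3, the stress transcription factor CHOP, had 11.5 and 46.9 FPKM, HERPUD1 had 39.6 and 107.3 FPKM, and the stress sensor ERN1 had 3.80 and 10.7 FPKM. The lowest log2 ratios were those of PDIA6, EIF2AK3 and CALR, between −0.51 and −0.22.

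**Figure D3:**
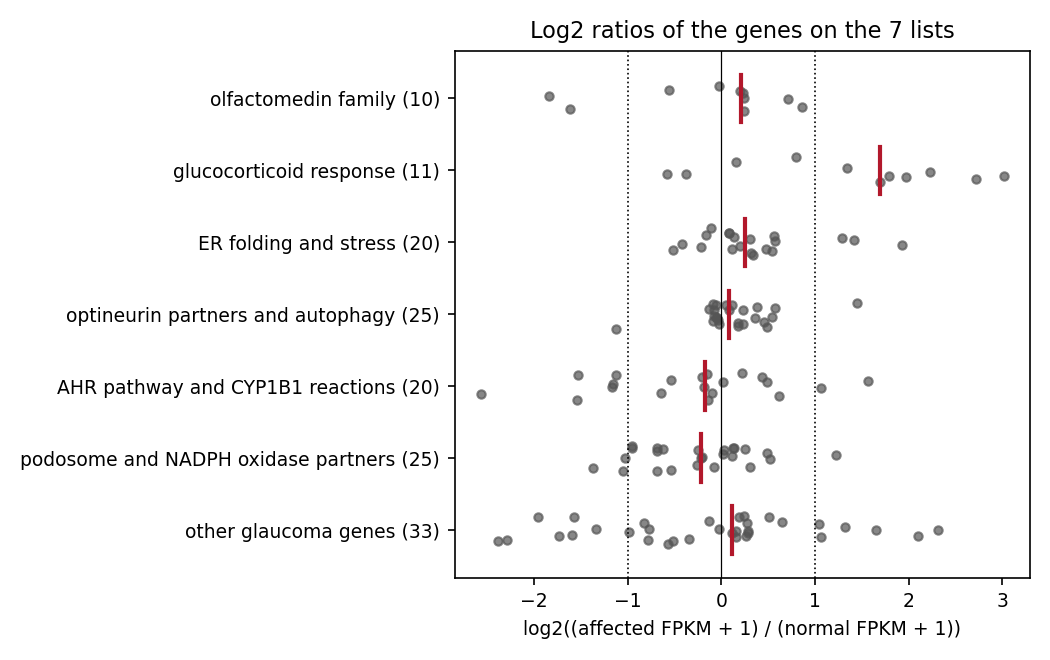
Log2 ratio (horizontal axis) of each gene past the minimum on the 7 lists, with the number of genes in brackets, the list median as a red bar and the 2-fold limits dotted. Vertical scatter within a list has no meaning, and CPAMD8, listed at 0 in the affected library, is not drawn. The glucocorticoid list has its median at 1.69, and the genes around optineurin gather near 0 with a median of 0.08.

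Of the partners of optineurin and core autophagy genes, 26 of 33 were matched to a row, and MAP1LC3B, VCP and CYLD were among those not analysed here. Of 25 genes past the minimum, 1 was at least 2-fold higher and 1 at least 2-fold lower, against 16.9% of all loci past 2-fold in either direction, and the median log2 ratio was 0.08. TBK1, the kinase of optineurin, had 8.51 FPKM in the normal cat and 9.30 FPKM in the affected cat. Its partners RAB8A and HTT had log2 ratios of −0.06 and −0.09, and MYO6, the motor, had 6.71 and 10.2 FPKM, a log2 ratio of 0.54. SQSTM1 (p62), a cargo receptor of the same class as optineurin, had 53.8 and 148.7 FPKM, the only gene at least 2-fold higher. The cargo receptors CALCOCO2, TAX1BP1 and NBR1 stayed within 2-fold, with log2 ratios of 0.46, 0.38 and 0.23 against 0.49 for OPTN. GABARAP, an autophagosome protein with 606.3 and 626.8 FPKM, was nearly equal. PINK1, the mitochondrial kinase upstream of optineurin in mitophagy, had 58.6 and 87.6 FPKM. RAB8B was the gene at least 2-fold lower, with 10.5 and 4.28 FPKM, and ATG7 followed at −0.13.

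In the pathway of CYP1B1 the genes went in both directions. Of 20 genes past the minimum, 2 were at least 2-fold higher and 6 at least 2-fold lower, and the median log2 ratio was −0.17. AHR, the receptor that induces CYP1B1, had 8.26 FPKM in the normal cat and 2.21 FPKM in the affected cat. ARNT2, a paralog of its partner, had 17.7 and 7.29 FPKM, while ARNT itself was not matched to a row of its own. Of the other targets of the receptor, CYP1A1 had 5.13 and 3.22 FPKM, NQO1 had 19.7 and 12.3 FPKM, and TIPARP had 12.9 and 17.7 FPKM. The first pair was lower, like CYP1B1, and the last was higher. POR, the reductase that donates electrons to CYP1B1, was higher, with 18.4 and 26.2 FPKM.

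Of the list's retinoid enzymes, ALDH1A1 and ALDH1A2, which make retinoic acid, were lower, with 432.2 and 192.7 FPKM and with 9.73 and 2.70 FPKM. ALDH1A3, which catalyses the same step, was higher, with 53.2 and 160.0 FPKM, as was RDH10, which makes retinal, with 32.9 and 70.0 FPKM. CYP26B1, which degrades retinoic acid, stayed within 2-fold, with 2.21 and 1.88 FPKM, and CYP26A1 was not matched to a row. ESR1, an oestrogen receptor, had a log2 ratio of 0.62 from 0.378 and 1.11 FPKM, or 1.34 with a pseudocount of 0.1 FPKM. The oestrogen sulfotransferase SULT1E1 had 1.28 and 0.0409 FPKM, with a log2 ratio of −1.13 that became −3.29 with a pseudocount of 0.1 FPKM. ALDH3A1, a corneal crystallin as well as a target of the receptor, had a log2 ratio of −2.57, from 475.3 and 79.2 FPKM.

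Partners of the TKS4 scaffold had log2 ratios on both sides of 0. Of 25 genes past the minimum, 1 was at least 2-fold higher and 3 at least 2-fold lower, with a median log2 ratio of −0.22. With a pseudocount of 0.1 FPKM, or with both libraries brought to the same sum, 5 were at least 2-fold lower. SRC, the kinase that phosphorylates TKS4, had 12.6 FPKM in the normal cat and 10.4 FPKM in the affected cat, and the related kinase FYN had 21.3 and 51.3 FPKM. The membrane protease MMP14, which acts at podosomes, had 119.6 and 167.8 FPKM, and WASL, an activator of actin branching, had 14.6 and 21.3 FPKM. The 3 lower genes were the metalloproteases ADAM12 and ADAM19, with 2.17 and 0.557 FPKM and with 3.86 and 0.886 FPKM, and WIPF1, which binds WASP proteins, with 17.2 and 7.77 FPKM. SH3PXD2A, the paralog of SH3PXD2B, was not matched to a row of its own.

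A wider list of other genes linked in humans to glaucoma or anterior segment disease was spread over both directions. Of 34 genes past the minimum, 6 were at least 2-fold higher and 8 at least 2-fold lower, and the median log2 ratio was 0.04, or 0.11 without CPAMD8. The highest were EFEMP1, FBN1 and LTBP2, which encode matrix proteins of elastic and microfibril networks, with log2 ratios of 2.31, 2.10 and 1.66. MYOC at 1.01 lay below all 6 higher genes, which also include PLEKHA7, ABCA1 and SIX6 at 1.32, 1.07 and 1.05. CPAMD8 had 43.3 FPKM in the normal cat and is listed at 0 for the affected cat. It is 1 of the 8 lower genes, and whether that 0 stands for an absent transcript was not tested. SVEP1 at −2.39 and THBS1 at −1.95 were also among the lower genes. Among transcription factors that the study screened beside these genes, FOXC1 was lower at −1.58 and PAX6 higher at 0.51.

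Several lists of cell type markers differed between the 2 libraries. All 9 corneal and conjunctival epithelium markers used were at least 2-fold lower in the affected library, and their summed level was 600.3 FPKM in the normal cat and 28.3 FPKM in the affected cat. The scleral and corneal stroma markers without COL1A2, which was listed at 0 in the normal library, summed to 5066 and 1024 FPKM, with 5 of 8 at least 2-fold lower and 1, PRELP, at least 2-fold higher. Without COL1A1, the most abundant of them in the normal cat and left out after the values were seen, the sums were 2590 and 983 FPKM. Vascular endothelium summed to 156.8 and 52.2 FPKM, with 5 of 8 markers at least 2-fold lower. Pigment cell markers summed to 2365 and 1638 FPKM, and nerve and Schwann cell markers to 229.8 and 184.3 FPKM.

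Photoreceptor markers summed to 412.5 FPKM in the normal cat and 1675 FPKM in the affected cat, with 7 of 9 at least 2-fold higher. Non-pigmented ciliary epithelium markers without CPAMD8 summed to 1442 and 5073 FPKM, and lens markers without CRYAA, which was listed at 0 in the affected library, to 24975 and 40691 FPKM. CRYAA had 22978 FPKM in the normal cat, and with it the lens markers summed to 47953 and 40691 FPKM, the opposite direction. The lens and the neural retina are not named in the description of the dissection.

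Markers of the trabecular meshwork, in which myocilin is abundant, were past 2-fold in both directions. Of 10 used, 3 were at least 2-fold higher and 2 at least 2-fold lower, against 16.9% of all loci past 2-fold in either direction, and none was at 0. Their summed level was 785.2 FPKM in the normal cat and 601.8 FPKM in the affected cat. Without MGP, the other 9 summed to 330.3 and 548.9 FPKM, the opposite direction. MGP was left out after the values were seen, as the marker with the highest normal value. That choice by itself lowers the normal sum most, so no direction is read from the other 9. Of them TIMP3 alone had 161.7 and 353.9 FPKM. MGP, an inhibitor of calcification, had 454.9 and 52.9 FPKM, while CHI3L1, a secreted chitinase-like protein, had 0.854 and 32.0 FPKM. Smooth and ciliary muscle markers, another site of myocilin expression, summed to 1357 and 1175 FPKM, with 0 of 8 at least 2-fold higher and 1 at least 2-fold lower. The part of the tissue markers in the values of MYOC, OPTN, CYP1B1 and SH3PXD2B was not tested, and with 1 library per condition the dissection, the cat and the disease cannot be told apart.

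**Figure D4:**
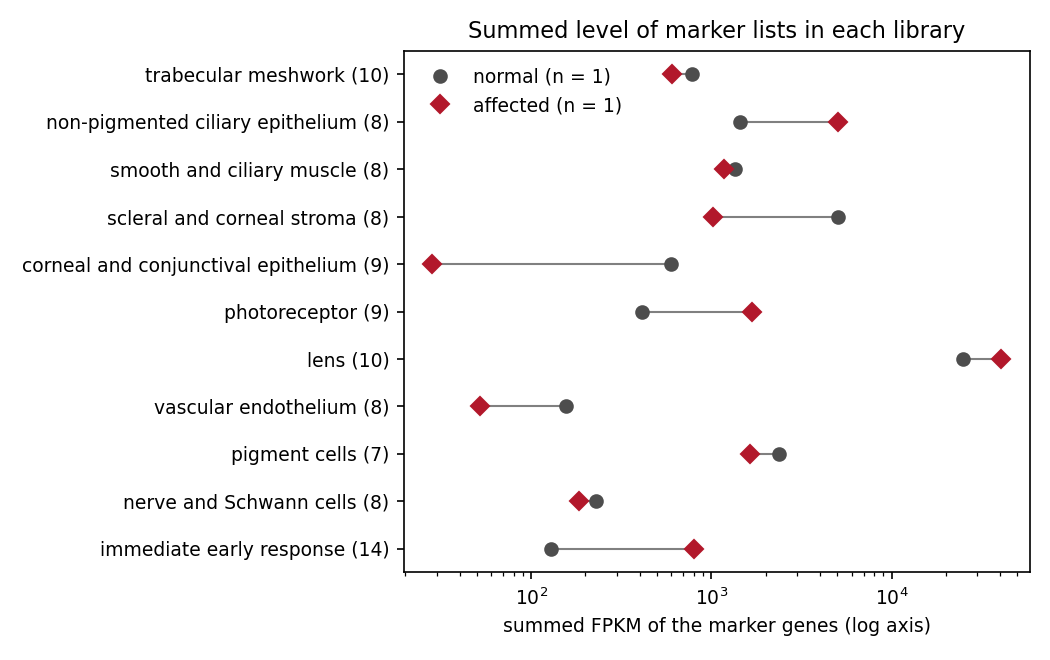
Summed FPKM (horizontal log axis) of each marker list in the normal (grey circles) and the affected library (red diamonds), with the number of genes summed in brackets. Genes listed at 0 in exactly 1 library are left out. With CRYAA, 1 of those left out, the lens markers sum to 47953 and 40691 FPKM, the opposite direction to the points drawn. Trabecular meshwork markers sum to 785.2 and 601.8 FPKM, or to 330.3 and 548.9 FPKM without MGP, which was left out after the values were seen. Corneal and conjunctival epithelium markers sum to 600.3 and 28.3 FPKM.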

How the data were processed

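TopHat 2.0.9 with Ensembl gene predictions was used by the authors for alignment to felCat5, and the FPKM are the authors' output of Cufflinks 2.1.1. The deposited table has 1 FPKM value for each library at each of 32065 loci, and the scaling between libraries is not given in the sources used here. Each column was assigned by its name, which matches the sample title.

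FPKM were used as deposited, with a pseudocount of 1 and loci of at least 1 FPKM in at least 1 library. No count model was fitted, because these values are not counts. A listed name that stood on several rows was taken from the row of highest mean, and its other rows are not reported. This holds for PER1 with 3 rows and for TBK1, WIPF1 and CRISPLD2 with 2 rows each. Named are the 4 genes, their nearest loci, per list the 3 highest and 3 lowest log2 ratios and direct partners, the 5 nearest genes by level, and other screened candidates. Not every gene that this rule selects is reported here. Further genes named were chosen after their values were seen. The members and lists were chosen with earlier results of these data known. Ratios, counts and the fragment step were tested on simulated data. Analyses used Python 3.11.15, numpy 2.4.6, pandas 2.3.3, scipy 1.17.1 and matplotlib 3.10.9. The alternatives tried were a pseudocount of 0.1, rescaling to a sum of 1000000 or a median log2 ratio of 0, no minimum, a mean of at least 5 FPKM and a 4-fold threshold.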

Additional observations from a re-analysis of the deposited data

How the results depend on the processing

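The log2 ratios of OPTN, CYP1B1 and SH3PXD2B moved by less than counting error on 1 kilobase under each pseudocount and rescaling tried, and only MYOC moved by more, to 0.96 with each library brought to a sum of 1000000 FPKM. The share of loci exceeded depends on which loci are compared. With no filter it was 98.4 and 99.1% for MYOC, 88.1 and 91.3% for OPTN, 93.8 and 92.0% for CYP1B1 and 62.4 and 66.4% for SH3PXD2B in the normal and the affected library. With a mean of at least 5 FPKM it was 95.3 and 97.3%, 64.2 and 73.9%, 81.3 and 76.1%, and 1.56 and 4.29% in the same order. Loci at least 2-fold higher and lower numbered 1358 and 1459, against 815 and 691 with that mean and 280 and 298 with a 4-fold threshold. With that mean the genes past 2-fold in either direction numbered 1 on the olfactomedin list and 2 on the podosome list, against 2 and 4, because fewer genes remained. On the podosome list the same number was 6 with a pseudocount of 0.1 and with each library brought to a sum of 1000000 FPKM. The median of the other glaucoma genes was −0.0046 under the same rescaling and −0.08 with no filter, so it has no stable sign. No paired analysis was possible because there is 1 normal and 1 affected library. Depth limits SH3PXD2B most, with 240 fragments per kilobase in the normal library.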
